A study of Mus with 9 samples.

Results

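Respiratory complex I takes electrons from NADH, passes them through a chain of iron-sulfur clusters to ubiquinone, and pumps protons across the inner mitochondrial membrane. Its peripheral arm holds the N module, which oxidises NADH, and the Q module, which reduces ubiquinone, while its membrane arm is built around subunits encoded in mitochondrial DNA. Heart muscle, which depends on oxidative metabolism, is rich in this complex. Almost all of its nuclear genes carry names that begin with Nduf, and so do several assembly factors, which help to build the complex and are not part of the finished enzyme. The genes described here are the rows of the count table whose symbol begins with Nduf, leaving out symbols that end in -ps, without use of any measured value. They number 49 of the 55421 genes in the table. By role they comprise 36 structural subunits, 8 assembly factors, the related genes Ndufa4 and Ndufa4l2, and 3 extra gene copies. The filter on low counts kept 48 of them among 19326 tested genes. The one that did not pass, Ndufa11b, is annotated in RefSeq as a transcribed pseudogene and had 3 counts in MI 4 and 0 in every other library.

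Bulk RNA sequencing had been done on 9 mouse libraries in 3 groups of 3. MI_ART 1, 2 and 3 came from animals with myocardial infarction given artesunate, an antimalarial derivative of artemisinin. MI 2, 3 and 4 came from infarcted animals given vehicle, and Sham 1, 2 and 3 from sham-operated animals given vehicle. All animals were labelled wild type, and the treatment protocol describes male C57BL/6J mice 8 to 10 weeks old whose left anterior descending coronary artery was tied permanently, or not tied in sham surgery. For artesunate, given intraperitoneally in both accounts, that protocol states 25 mg/kg daily for 7 days from surgery, whereas the design text states 10 mg/kg on alternate days from 2 days before surgery to day 7. The growth protocol speaks of rats, and the day of harvest is not given in the sources used here. The design question, as far as the labels state it, is what infarction does to this tissue and what artesunate does after infarction.

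The tissue label reads atria, and the design text left atrium. Myl7 and Sln, which mark atrial muscle, were nevertheless at 1.96 and 0.740 CPM in MI_ART 3 (CPM, the usual depth-scaled count, here always over the TMM-scaled library size). Myl2, which marks ventricular muscle, was present in all 9 libraries, at 946 to 1537 CPM in MI_ART, 455 to 846 CPM in MI and 2967 to 3786 CPM in Sham. Myl7 was at 1.96 to 803 CPM in MI_ART, 347 to 989 CPM in MI and 168 to 822 CPM in Sham. Total counts ranged from 69363844 to 69974836 in MI_ART, from 72376936 to 73621277 in MI and from 68046341 to 83685313 in Sham. MI 4 stood apart from the other infarct libraries: a chi-square statistic per gene reached 580 and 469 between it and MI 2 and MI 3, against 62.5 to 129 for all other pairs within a group. Counts of mitochondrially encoded genes made up 23.0% to 25.5% of MI_ART libraries, 12.6% to 20.6% of MI libraries and 37.7% to 43.1% of Sham libraries.

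Transcripts of complex I were lower in infarcted than in sham-operated tissue. Of the 48 tested Nduf genes, 42 were lower in MI than in Sham at a Benjamini-Hochberg adjusted p under 0.05 by edgeR's quasi-likelihood test, against 14.3% of all tested genes. None was higher, against 18.8% of all tested genes, and none was higher at an unadjusted p under 0.05 or by DESeq2. The median log2 fold change of the members was -1.06, that of all tested genes 0.04. Libraries of both groups did not overlap for 45 of the 48 members, against 48.9% of all tested genes. Without MI 4, the count of lower members was 47 and that of all tested genes 3081, against 2768 with all libraries. In bulk tissue, fewer cells of a type and less RNA per cell cannot be told apart.

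The same counts read per total counts gave a smaller difference. On that scale the median of all tested genes shifted to 0.88 and that of the members to -0.21. A change of scale shifts all genes of a comparison by nearly the same amount. The distance between the members and all genes, -1.10 on both scales, is therefore no separate result. With total counts, 9 members were called lower, beside 644 of all 19326 tested genes, and 1, Ndufa4l2, higher, beside 9528. On that scale 36 of 48 members had a log2 fold change below 0, against 47 with TMM scaling. Of all called genes, 93.7% were higher on that scale and 56.7% with TMM scaling. As a share of all counts that did not come from mitochondrially encoded genes, Nduf transcripts made up 0.659% to 0.766% in MI libraries and 1.21% to 1.28% in Sham libraries, with no overlap.

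**Figure D1:**
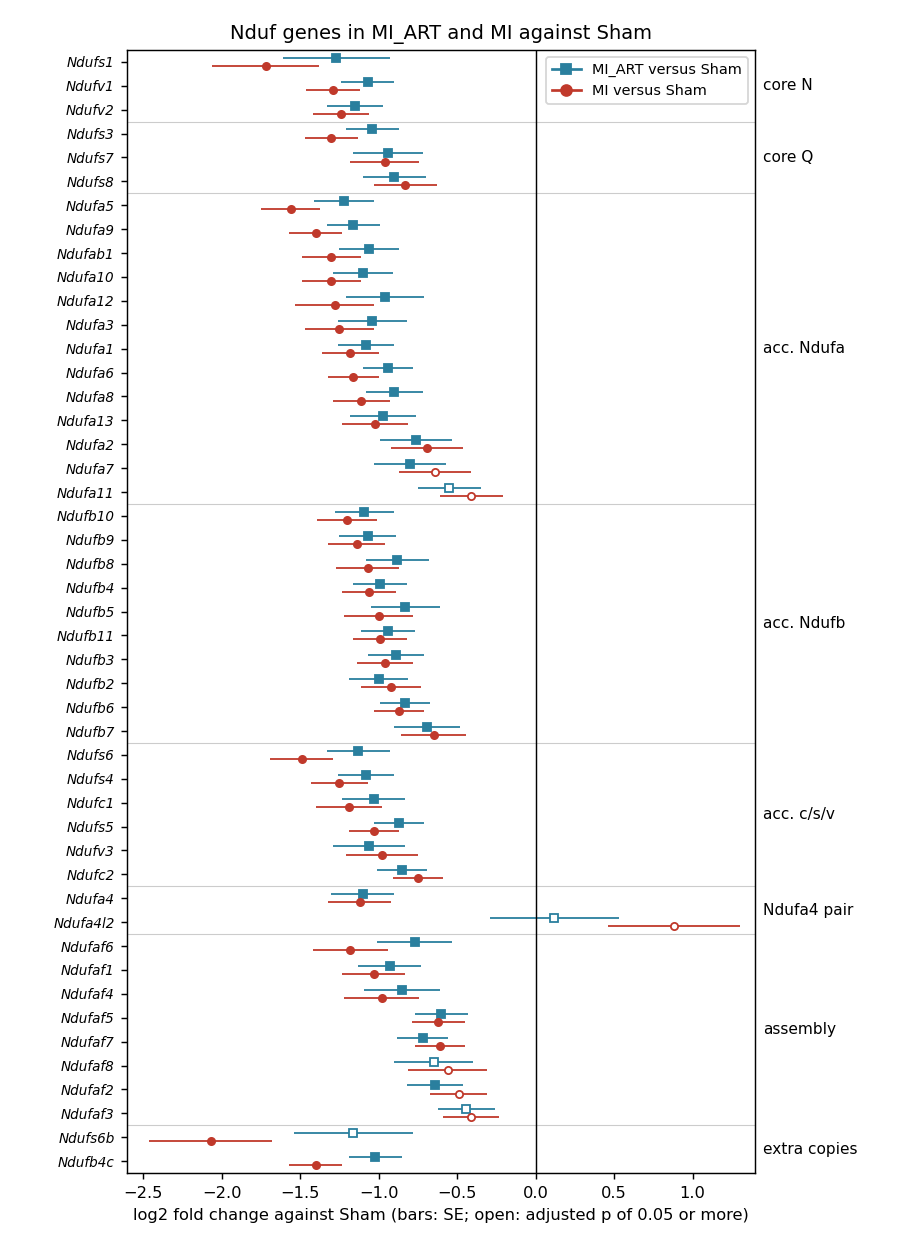
Log2 fold changes of 47 of the 48 tested Nduf genes in MI_ART versus Sham (blue squares) and MI versus Sham (red circles), grouped by role, with TMM scaling. Bars are standard errors and open symbols mark an adjusted p of 0.05 or more. Structural subunits lie between -1.27 and -0.55 in MI_ART versus Sham and between -1.72 and -0.41 in MI versus Sham, and Ndufa4l2 alone lies above 0. With total counts as the scale, the median of the assembly factors is 0.06 in MI_ART versus Sham and 0.24 in MI versus Sham, above 0.

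The core subunits of the N module carry out NADH oxidation. All 3 fell in MI. Ndufv1, which binds NADH and the flavin cofactor, had 206, 160 and 194 CPM in MI and 427, 483 and 461 CPM in Sham. Its log2 fold change was -1.29 (SE 0.17, adjusted p = 4.99e-04). Every MI library lay below every Sham library for this gene, by far more than the spread inside either group. Ndufv2, which holds a further iron-sulfur cluster of this module, had 228, 195 and 206 CPM in MI against 468, 441 and 581 CPM in Sham (log2 fold change -1.24, SE 0.18, adjusted p = 6.89e-04).

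Ndufs1 (ENSMUSG00000025968, chr1:63143592-63176822 in GRCm38), the largest subunit and the carrier of several iron-sulfur clusters, had the lowest log2 fold change among the structural subunits, -1.72 (SE 0.34, adjusted p = 0.00415). It had 471, 385 and 158 CPM in MI and 1010, 1056 and 1266 CPM in Sham. MI 4 was the low library, at 0.369 times the mean of MI 2 and MI 3. Without MI 4 the log2 fold change was -1.37 (adjusted p = 6.67e-04) and Ndufs6 took the lowest place. Among the heart muscle markers, Ttn, which encodes the giant sarcomere protein titin, was also low in MI 4, at 178 CPM against 2358 and 1269 CPM in MI 2 and MI 3. MI 4 was also the lowest MI library for Ryr2, Pln, Mb, Ldb3, Myh6 and Actc1. Ryr2, for example, was at 164 CPM against 643 and 491 CPM. Not all markers of that list were low there. Tnni3, Actn2 and Mybpc3 in MI 4 lay between MI 2 and MI 3. Tnnt2 was highest in MI 4, at 4408 CPM against 3924 and 3168 CPM, and so was Tnnc1, at 1285 CPM against 1260 and 1109 CPM. What part the state of that library has in the value of Ndufs1 was not tested.

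The 4 nuclear core subunits of the Q module fell in MI as well, at a median log2 fold change of -1.13. Ndufs3, a scaffold of this module, had 142, 110 and 111 CPM in MI and 291, 304 and 300 CPM in Sham (log2 fold change -1.30, SE 0.17, adjusted p = 5.10e-04). Every infarct library was well under the sham level of Ndufs3, and its sham values lay within a narrow band.

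Ndufs7, which carries the last iron-sulfur cluster before ubiquinone, had 176, 128 and 227 CPM in MI and 337, 354 and 342 CPM in Sham. Its log2 fold change was -0.96 (SE 0.22, adjusted p = 0.00812). Here MI 4 was the highest infarct library and MI 3 the lowest, the reverse of the low value of Ndufs1 in MI 4. Ndufs8, which holds a pair of iron-sulfur clusters, had 112, 95.8 and 134 CPM in MI and 212, 164 and 233 CPM in Sham, and its log2 fold change of -0.83 (SE 0.20, adjusted p = 0.0100) turned to 0.03 on the total-count scale.

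**Figure D2:**
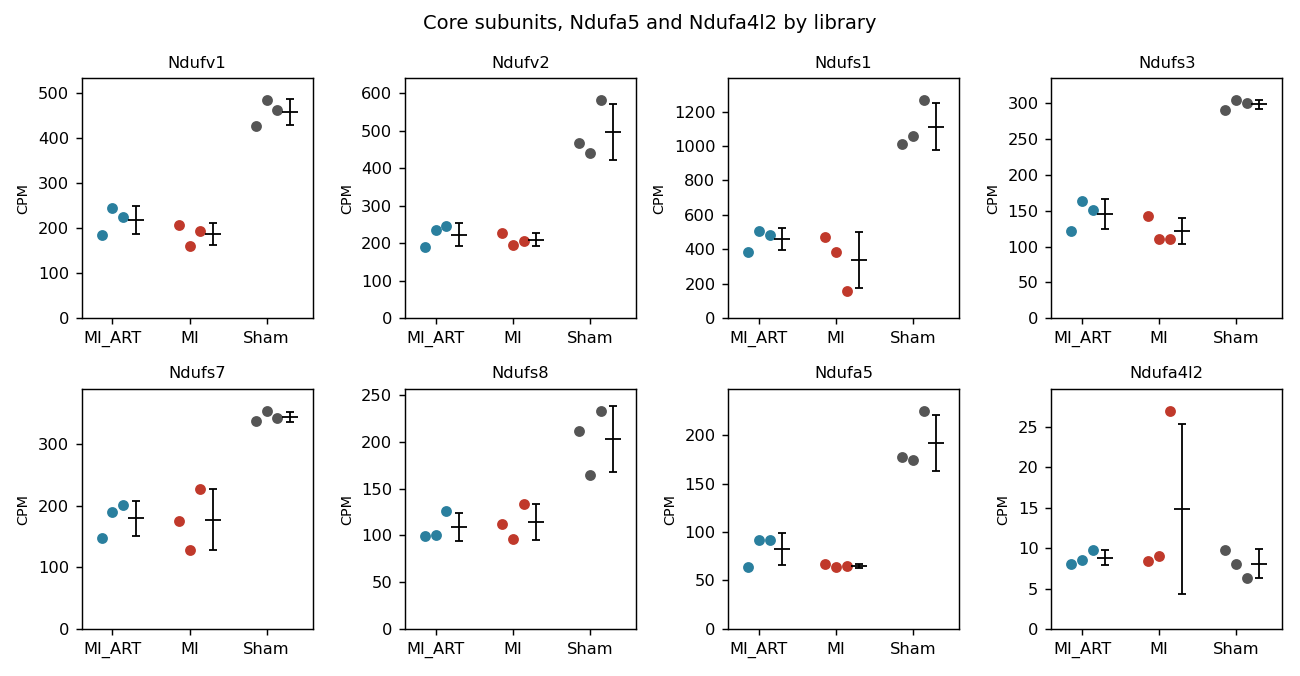
CPM of 6 nuclear core subunits, Ndufa5 and Ndufa4l2 in each library, with the mean and SD of the 3 libraries of a group beside the points (MI_ART blue, MI red, Sham grey; each vertical axis starts at 0). For each core subunit shown the infarct libraries of both groups lie below every Sham library, while MI_ART and MI overlap, and Ndufa4l2 is at 27.0 CPM in MI 4 against 6.28 to 9.83 CPM elsewhere.

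Accessory subunits surround the core and are needed for assembly and stability. Of the 13 in the Ndufa series, Ndufab1 included, 11 fell in MI, at a median log2 fold change of -1.18. Ndufa5, a small subunit of the Q module, had 67.3, 63.4 and 64.5 CPM in MI and 177, 174 and 225 CPM in Sham (log2 fold change -1.56, SE 0.19, adjusted p = 3.38e-04). Ndufa9, which binds a nucleotide cofactor where the arms meet, had 253, 212 and 197 CPM in MI and 539, 555 and 645 CPM in Sham (log2 fold change -1.40, SE 0.17, adjusted p = 3.33e-04). Ndufa6 had 83.7, 69.4 and 77.1 CPM in MI and 168, 164 and 184 CPM in Sham (log2 fold change -1.16, SE 0.16, adjusted p = 6.03e-04). The MI values of Ndufa5 agreed closely, with a mean of 65.1 ± 2.02 CPM (SD, n = 3), MI 4 included.

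The other 2 members of that series missed the threshold. Ndufa7 had 74.2, 57.3 and 107 CPM in MI and 122, 116 and 133 CPM in Sham (log2 fold change -0.64, adjusted p = 0.0597). Ndufa11, a subunit of the membrane arm, had 89.1, 75.3 and 116 CPM in MI and 128, 119 and 124 CPM in Sham (log2 fold change -0.41, adjusted p = 0.150). In both, MI 4 lay nearest to the sham libraries. Without it both were called lower, and on the total-count scale both had positive log2 fold changes, 0.22 and 0.45.

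All 10 accessory subunits of the Ndufb series, which sit in the membrane arm, fell in MI, at a median log2 fold change of -0.99. Ndufb10 had 149, 118 and 161 CPM in MI and 316, 284 and 386 CPM in Sham (log2 fold change -1.20, SE 0.19). Ndufb9 had 201, 167 and 225 CPM in MI and 425, 413 and 471 CPM in Sham (-1.14, SE 0.18). Ndufb4 had 60.6, 54.8 and 71.9 CPM in MI and 126, 121 and 144 CPM in Sham (-1.06, SE 0.17). These 3 had adjusted p-values of 0.00109, 0.00110 and 0.00125. Ndufb7 had the largest p of the series: 116, 108 and 171 CPM in MI and 222, 194 and 207 CPM in Sham. Its log2 fold change of -0.65 (SE 0.21, adjusted p = 0.0386) lost its call in 10 of 19 alternative analyses and turned to 0.20 on the total-count scale.

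The remaining 6 accessory subunits, of the Ndufc, Ndufs and Ndufv series, all fell in MI, at a median log2 fold change of -1.11. Ndufs6, which with Ndufs4 joins the N module late in assembly, had 41.7, 39.1 and 50.9 CPM in MI and 121, 114 and 135 CPM in Sham (log2 fold change -1.49, SE 0.20, adjusted p = 5.29e-04). Ndufs4, whose loss in humans causes Leigh syndrome, had 83.4, 77.6 and 66.3 CPM in MI and 165, 163 and 213 CPM in Sham (log2 fold change -1.25, SE 0.18, adjusted p = 7.65e-04). Ndufs5 had 62.0, 59.4 and 64.6 CPM in MI and 118, 121 and 142 CPM in Sham (log2 fold change -1.03, SE 0.16, adjusted p = 0.00107). All 3 separated the groups completely. Ndufv3, with the largest p of these 6, had 50.1, 45.9 and 79.8 CPM in MI and 108, 107 and 131 CPM in Sham (log2 fold change -0.98, SE 0.23, adjusted p = 0.00930).

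Over the 36 structural subunits, the log2 fold changes in MI versus Sham ranged from -1.72 to -0.41, with an SD over members of 0.27, and 34 were called. Without MI 4 all 36 were called, the range was -1.61 to -0.59 and the SD 0.20. The structural subunits therefore differed less among themselves once that library was left out. On the total-count scale their median was -0.27 and 7 were called.

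Ndufa4 was first described as a complex I subunit and is now counted as part of cytochrome c oxidase. It had 176, 158 and 209 CPM in MI and 362, 353 and 462 CPM in Sham (log2 fold change -1.12, SE 0.20, adjusted p = 0.00229). Its relative Ndufa4l2 (ENSMUSG00000040280, chr10:127509274-127517154) is induced by hypoxia-inducible factor and restrains mitochondrial respiration. It had 8.43, 9.04 and 27.0 CPM in MI and 9.83, 8.08 and 6.28 CPM in Sham. The log2 fold change of 0.88 (SE 0.42, adjusted p = 0.133) rested on MI 4 and was 0.12 without that library. The other 2 MI libraries lay within the range of the sham libraries.

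The 8 assembly factors had smaller differences than the structural subunits, at a median log2 fold change of -0.62 in MI versus Sham, which turned to 0.24 on the total-count scale. With TMM scaling 5 were called lower. Ndufaf1, which works on the membrane arm together with Acad9 and Ecsit, had 27.1, 23.1 and 18.4 CPM in MI and 43.9, 40.8 and 55.3 CPM in Sham (log2 fold change -1.03, SE 0.20, adjusted p = 0.00373). Ndufaf6 had 8.73, 7.61 and 5.38 CPM in MI and 12.7, 18.6 and 18.0 CPM in Sham (log2 fold change -1.18, SE 0.24, adjusted p = 0.00463). Ndufaf4, which acts with Ndufaf3 on the early Q module, had 18.2, 15.4 and 9.34 CPM in MI and 29.9, 23.5 and 31.3 CPM in Sham (log2 fold change -0.98, SE 0.24, adjusted p = 0.0124). MI 4 was the lowest library for each of these 3.

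Ndufaf2, Ndufaf3 and Ndufaf8 were not called in MI versus Sham. Ndufaf2, which is exchanged for Ndufa12 late in assembly, had 8.78, 9.08 and 11.1 CPM in MI and 12.0, 13.5 and 15.2 CPM in Sham (log2 fold change -0.49, adjusted p = 0.0615). Ndufaf3 had 18.4, 15.9 and 24.2 CPM in MI and 27.3, 23.2 and 27.1 CPM in Sham (log2 fold change -0.41, adjusted p = 0.117). Ndufaf8, a partner of Ndufaf5, had 11.2, 9.40 and 18.9 CPM in MI and 20.1, 19.3 and 18.8 CPM in Sham (log2 fold change -0.56, adjusted p = 0.113). The groups overlapped for Ndufaf3 and Ndufaf8, in each case through MI 4. Without MI 4 all 8 assembly factors were called lower, with a median of -0.67. On the total-count scale Ndufaf2, Ndufaf3 and Ndufaf8 had log2 fold changes of 0.37, 0.45 and 0.29.

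The ratio between both classes does not depend on the scale of a library. Per 1000 summed CPM of structural subunits, the assembly factors had 27.8, 25.0 and 24.6 summed CPM in MI_ART, 28.2, 29.6 and 26.8 in MI and 20.6, 20.1 and 21.0 in Sham. Every library of either infarct group lay above every Sham library. This is a description of sums, in which abundant genes weigh most, and it shows unequal change of the classes, not which of them changed.

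Ndufb4c and Ndufs6b are extra copies of Ndufb4 and Ndufs6 at other loci. RefSeq lists Ndufb4c as protein coding and Ndufs6b (chr7:81161273-81161746) as a pseudogene. Ndufb4c had 9.38, 9.74 and 9.54 CPM in MI and 26.5, 21.8 and 27.5 CPM in Sham (log2 fold change -1.40, SE 0.17, adjusted p = 3.53e-04). Ndufs6b had 0.774, 0.525 and 0.657 CPM in MI and 2.19, 1.96 and 4.06 CPM in Sham (log2 fold change -2.07, SE 0.39, adjusted p = 0.00327). Neither group overlapped the other for these genes. How reads that match several loci were counted is not given in the sources used here, so the split between each copy and its parent gene is uncertain. The same holds where genes overlap, since the strand setting is not given either: 9 of the 49 members overlap another protein-coding gene in RefSeq, among them Ndufb11, which shares 263 bases with Rbm10.

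Members of the complex and its assembly line without an Nduf name were taken from a fixed list. All 7 mitochondrially encoded subunits, which form the proton-pumping core of the membrane arm, fell in MI, at a median log2 fold change of -2.20. The pair with the smallest p were mt-Nd3 and mt-Nd6. The level of mt-Nd3 was 466, 540 and 404 CPM in MI and 2008, 1846 and 2613 CPM in Sham (log2 fold change -2.20, SE 0.19, adjusted p = 9.56e-05). The level of mt-Nd6, the one of these genes on the opposite strand of mitochondrial DNA, was 4071, 3455 and 4467 CPM in MI and 15294, 14055 and 17937 CPM in Sham (log2 fold change -1.98, SE 0.18, adjusted p = 1.00e-04).

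Of the other 13 assembly factors on that list, 12 were in the table, and 10 of these were lower in MI, at a median log2 fold change of -0.79. Timmdc1 (log2 fold change -0.41, adjusted p = 0.0748) and Dmac1 were not called. Dmac1, a factor for the distal membrane arm, had the largest p: 23.6, 23.3 and 30.1 CPM in MI and 22.5, 23.5 and 27.5 CPM in Sham (log2 fold change 0.07, SE 0.17, adjusted p = 0.792). Its MI libraries lay among the sham libraries, apart from MI 4. On the total-count scale Dmac1 had a log2 fold change of 0.93 and was called higher.

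The balance between both genomes differed as well. The summed CPM of the mitochondrially encoded subunits was 16.7, 10.7 and 10.2 times that of the structural Nduf genes in MI_ART, 10.4, 10.5 and 7.04 times in MI and 19.4, 17.5 and 19.5 times in Sham. Both infarct groups lay below Sham in every library. MI_ART 1 stood above the other libraries of its group, with 16.7.

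Nuclear genes of the other respiratory complexes were also lower in MI than in Sham. Lower calls covered 4 of 4 tested genes of complex II, 9 of 9 of complex III, 11 of 13 of complex IV, where 1 was higher, and 15 of 17 of complex V. The median log2 fold changes were -1.15, -1.10, -1.22 and -1.18. The summed CPM of the Nduf genes over that of complexes II to V was 0.329, 0.344 and 0.343 in MI_ART, 0.337, 0.352 and 0.398 in MI and 0.354, 0.320 and 0.353 in Sham. These ratios overlapped between all groups, so no shift of complex I apart from the other complexes was seen in the sums.

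Markers of heart muscle were also lower in infarcted tissue, to unequal degrees. Of 12 cardiomyocyte markers, 8 were called lower in MI than in Sham. The median log2 fold change of the 12 was -1.23, with a range from -2.19 to -0.32. In MI_ART versus Sham 6 were called lower, at a median of -0.79. The summed level of the 12 was 30009 to 39645 CPM in MI_ART, 24381 to 36199 CPM in MI and 63664 to 69868 CPM in Sham. The summed CPM of the Nduf genes over that of these markers was 0.147, 0.143 and 0.158 in MI_ART, 0.141, 0.143 and 0.201 in MI and 0.148, 0.159 and 0.169 in Sham. The groups overlapped on this ratio, and MI 4 was its highest library.

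Markers of immune and dividing cells were higher after infarction. All 7 macrophage markers, all 3 neutrophil markers and all 4 cell cycle genes were higher in MI, and of 7 fibroblast markers 5 were higher and 1 lower. The summed macrophage level was 1710 to 3338 CPM in MI_ART, 2539 to 3055 CPM in MI and 307 to 462 CPM in Sham. The summed fibroblast level was 6831 to 8083 CPM in MI_ART, 7729 to 9115 CPM in MI and 1635 to 1831 CPM in Sham. Brown adipocyte markers, which come from cells rich in mitochondria, summed to 19.5 to 36.8 CPM in MI_ART, 16.1 to 58.8 CPM in MI and 36.5 to 65.7 CPM in Sham, with Ucp1 at 0 in MI_ART 3, MI 2 and MI 3. The 4 atrial markers summed to 1302 to 12368 CPM in MI_ART, 13430 to 25042 CPM in MI and 1739 to 7323 CPM in Sham, and none of them was called in MI versus Sham. Nppa made up most of these sums, with means of 4454 CPM in MI_ART, 14530 CPM in MI and 3340 CPM in Sham. In MI versus Sham, Myl7 and Sln had log2 fold changes of 0.19 and 0.21 with overlapping groups, and Myl4 had 1.12 without overlap. Of 3 ventricular markers, 2 were lower in MI, Myl2 (log2 fold change -2.20) and Myl3 (-1.78), and their list summed to 2561 to 3914 CPM in MI_ART, 1368 to 2532 CPM in MI and 7124 to 8034 CPM in Sham, with no overlap between infarct and sham libraries. Of 5 endothelial markers 1, Kdr, was lower in MI (-0.83, adjusted p = 0.0338) and none was higher, with sums of 552 to 578 CPM in MI_ART, 523 to 758 CPM in MI and 576 to 647 CPM in Sham. Of 3 tested skeletal muscle markers 2 were higher in MI, with sums of 3.08 to 7.43 CPM in MI_ART, 37.6 to 109 CPM in MI and 1.99 to 4.17 CPM in Sham. The part of these cell types in the Nduf differences was not tested.

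**Figure D3:**
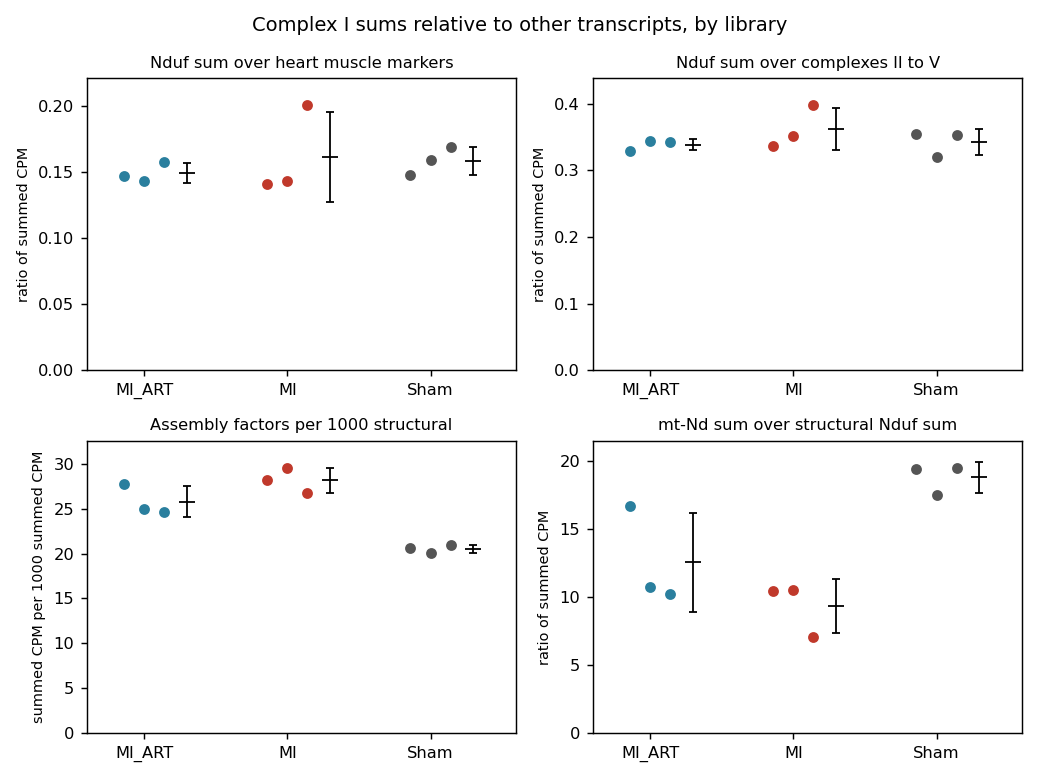
Ratios of summed CPM in each library (MI_ART blue, MI red, Sham grey), with the mean and SD of 3 libraries beside the points and every axis starting at 0. The groups overlap for Nduf genes over heart muscle markers and over complexes II to V. Assembly factors per 1000 of structural subunits lie between 24.6 and 29.6 in infarct libraries and between 20.1 and 21.0 in Sham, and mitochondrially encoded over structural subunits between 7.04 and 16.7 and between 17.5 and 19.5.

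In artesunate-treated infarcted tissue the Nduf genes were also below sham. Of the 48 tested members, 43 were lower in MI_ART than in Sham, against 7.41% of all tested genes, and none was higher, against 12.9%. None was higher at an unadjusted p under 0.05 by edgeR, and none by DESeq2. The median log2 fold change was -0.95, that of all tested genes 0.01, and libraries did not overlap for 47 members, against 48.2% of all tested genes. Leaving out MI_ART 1 reduced the count to 26, with a median of -0.85, and that of all tested genes called lower to 455, against 1433 with all libraries. Leaving out MI 4, which enters through the shared estimate of the spread, raised the members' count to 47, and that of all tested genes to 2896. On the total-count scale the median of all genes shifted to 0.75, the members' median was -0.20 and 0 members were called, beside 124 of all tested genes called lower. Of all called genes, 98.5% were higher on that scale and 63.5% with TMM scaling.

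All 7 nuclear core subunits fell in MI_ART versus Sham. Ndufv2 had 189, 234 and 246 CPM in MI_ART and 468, 441 and 581 CPM in Sham (log2 fold change -1.15, SE 0.18, adjusted p = 0.00175). Ndufa9 had 228, 269 and 283 CPM in MI_ART and 539, 555 and 645 CPM in Sham (log2 fold change -1.16, SE 0.17, adjusted p = 0.00143). Ndufa5 had 63.5, 92.2 and 92.2 CPM in MI_ART and 177, 174 and 225 CPM in Sham (log2 fold change -1.22, SE 0.19, adjusted p = 0.00199). These 3 genes had the smallest p-values of this comparison. MI_ART 1 was the lowest library of its group for each of them, as it was for 45 of the 48 tested members.

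By role, 35 of 36 structural subunits were lower in MI_ART than in Sham, at a median log2 fold change of -0.99 and an SD over members of 0.15. Of the 8 assembly factors 6 were lower with TMM scaling, with a median of -0.68, which turned to 0.06 on the total-count scale. The 5 members not called were Ndufs6b (adjusted p = 0.0592), Ndufa11 (0.0855), Ndufaf8 (0.100), Ndufaf3 (0.128) and Ndufa4l2 (0.870). Ndufa4l2 was at 7.98, 8.58 and 9.81 CPM in MI_ART and 9.83, 8.08 and 6.28 CPM in Sham, with overlapping groups. All 7 mitochondrially encoded subunits were lower, with a median of -1.69, as were 8 of the 12 other assembly factors, with a median of -0.69. Both comparisons with Sham use the same sham libraries. They called 41 members in common, all lower. Of all tested genes, 14.3% were called lower in MI versus Sham and 7.41% in MI_ART versus Sham. The share of all tested genes called in both is not given here.

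No Nduf gene was called between artesunate-treated and vehicle-treated infarcted tissue. In MI_ART versus MI, edgeR called 0 of the 48 tested members in either direction. Of all tested genes, 0.0103% were called lower and 0% higher in this comparison. At an unadjusted p under 0.05 there were 2 members by edgeR and 1 by DESeq2, which also called 0. The log2 fold change was above 0 for 35 members and below 0 for 13, with a median of 0.10, and -0.00 for all tested genes. Libraries did not overlap for 2 members, against 13.9% of all tested genes. The members' median ranged from 0.03 to 0.20 over the analyses that left out 1 library each, and was -0.01 on the total-count scale.

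The 7 core subunits had log2 fold changes between -0.07 and 0.44 in MI_ART versus MI. Ndufs1 had the highest value, with 387, 507 and 486 CPM in MI_ART and 471, 385 and 158 CPM in MI (log2 fold change 0.44, SE 0.34, adjusted p = 0.785), and MI 4 was its low library. Both groups overlapped for each of these genes. Their standard errors were 0.17 to 0.34.

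The 3 members with the smallest p in MI_ART versus MI were Ndufs6b, Ndufb4c and Ndufa5. Ndufs6b had 0.987, 1.11 and 1.57 CPM in MI_ART and 0.774, 0.525 and 0.657 CPM in MI (log2 fold change 0.90, SE 0.39, adjusted p = 0.709). Ndufb4c had 10.6, 14.2 and 12.6 CPM in MI_ART and 9.38, 9.74 and 9.54 CPM in MI (log2 fold change 0.38, SE 0.17, adjusted p = 0.716). These extra copies were the members whose libraries did not overlap. Ndufa5 had 63.5, 92.2 and 92.2 CPM in MI_ART and 67.3, 63.4 and 64.5 CPM in MI (log2 fold change 0.35, SE 0.19, adjusted p = 0.733). MI_ART 1 lay at the level of the MI libraries and the other 2 above it.

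The mitochondrially encoded subunits were higher on average in MI_ART than in MI, with log2 fold changes of 0.27 to 0.94 and a median of 0.54. None of the 7 was called by edgeR, 5 had an unadjusted p under 0.05, and for each of the 7 the libraries of both groups did not overlap, against 13.9% of all tested genes. For mt-Nd3 the values were 603, 676 and 660 CPM in MI_ART and 466, 540 and 404 CPM in MI (log2 fold change 0.46, SE 0.19, adjusted p = 0.709). These genes lie on the same mitochondrial DNA, mt-Nd6 on its opposite strand, and are not independent of each other. The 12 other assembly factors had a median of 0.07, with none called.

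In the order of the group means, 35 members ran MI, MI_ART, Sham from low to high, and 12 ran MI_ART, MI, Sham. One, Ndufa4l2, ran Sham, MI_ART, MI. MI_ART and MI did not differ at the threshold used here for any of the 48, so their order is a description. Of all tested genes, 9603 had a log2 fold change above 0 in MI_ART versus MI and 9723 below 0. For nuclear complexes II, III, IV and V, 4 of 4, 8 of 9, 9 of 13 and 13 of 17 tested genes were above 0. This order is thus not particular to complex I.

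Within the MI group, MI 4 was above both other libraries for 28 of the 48 members and below both for 11. The ratio of MI 4 to the mean of MI 2 and MI 3 ran from 0.369 for Ndufs1, 0.555 for Ndufaf4 and 0.658 for Ndufaf6 to 1.83 for Ndufaf8 and 3.09 for Ndufa4l2. The 6 members that missed the threshold in MI versus Sham were all among the 28 with MI 4 above both other libraries. A high MI 4 raises the MI mean and the spread that enter the test, so this pattern is partly built in. The gene mt-Nd4l, chosen after its values were seen, was likewise at 160 CPM in MI 4 against 860 and 747 CPM in MI 2 and MI 3.

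**Figure D4:**
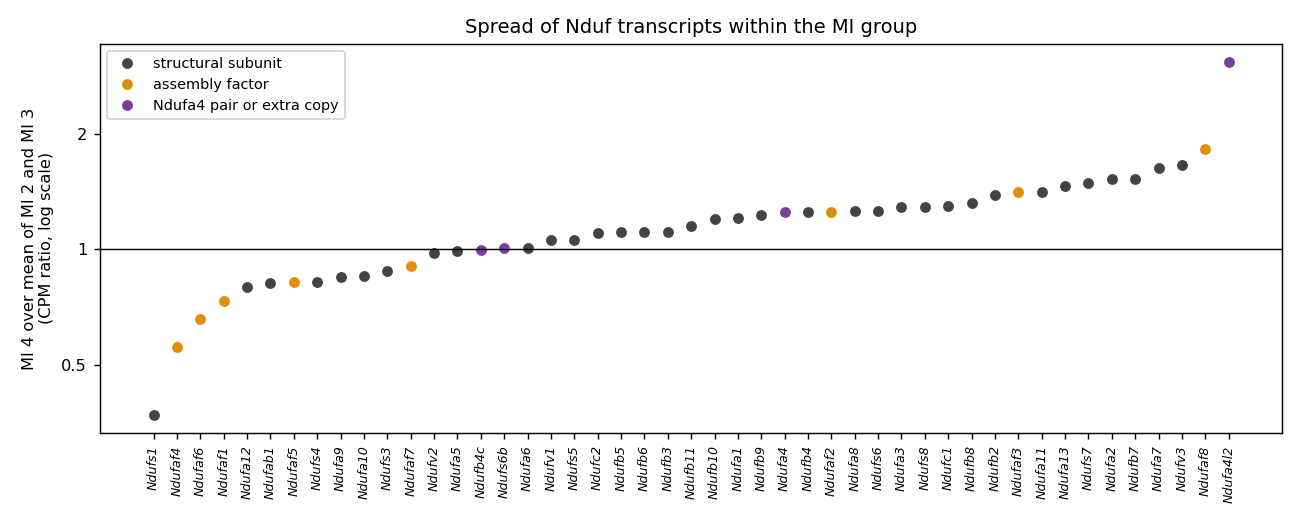
Ratio of the CPM in MI 4 to the mean of MI 2 and MI 3 for 47 of the 48 tested Nduf genes, in rising order on a log axis (black, structural subunits; orange, assembly factors; purple, Ndufa4, Ndufa4l2 and the extra copies). The line marks equal levels. Ndufs1 lies lowest at 0.369 and Ndufa4l2 highest at 3.09.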

How the data were processed

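The authors deposited raw counts of reads per Ensembl gene, without normalization. Per the submitters' processing notes, the GRCm38 build, featureCounts 1.5.0-p3, HISAT and DESeq 1.8.3 belong to that work, with no HISAT version given in the sources used here. Per the labels' protocols, each SMARTer mRNA-Seq library took 1.3 µg of RNA. No source used here says that the libraries of a group came from separate animals, so p-values reflect sample-to-sample spread, which may be technical. No pair of libraries agreed within sampling noise.

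The deposited counts went into edgeR 4.0.16 (R 4.3.3): filterByExpr on the 3 groups, TMM scaling, 1 quasi-likelihood fit of all 9 libraries with 1 mean per group, and Benjamini-Hochberg adjustment over 19326 tested genes, with a call at an adjusted p under 0.05. Every adjusted p is from this fit unless DESeq2 (1.42.0) is named. SE is the log2 fold change divided by the square root of F. The common dispersion was 0.15. Medians, sums and ratios carry no test. The depth given for each library allows a floor of 3 counts at 0.0321 to 0.0592 CPM, counting error only.

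The members, role classes, marker lists and the other complex I genes were chosen with earlier results of these data known. Genes named are the core subunits, Ndufa4 and Ndufa4l2, the 3 smallest p and the largest p in each class, the 3 smallest p in the other comparisons, and members not called or not tested. A gene that this rule chose is not reported here and enters the counts only. All 49 symbols matched RefSeq (GRCm38.p6), whose coordinates are given. Transcript lengths were not at hand, so levels of different genes were not compared. For each comparison 19 alternatives were run.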

Additional observations from a re-analysis of the deposited data

How the results depend on the processing

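The scale of a library had the widest effect. With total counts in place of TMM, members lower in MI than in Sham numbered 9 and members higher 1, with a median of -0.21. In MI_ART versus Sham 0 were lower, with a median of -0.20, and in MI_ART versus MI the median was -0.01. Named genes that changed sign in MI versus Sham there were Ndufs8 (0.03), Ndufa11 (0.45), Ndufb7 (0.20), Ndufaf3 (0.45), Ndufa7 (0.22), Ndufaf2 (0.37) and Ndufaf8 (0.29). A change of scale moves all genes of a comparison by nearly the same amount. In MI versus Sham the median of all tested genes went from 0.04 to 0.88. TMM factors were 1.19 to 1.28 in MI libraries and 0.624 to 0.744 in Sham libraries. Why these factors differ was not tested.

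Leaving out 1 library at a time gave 38 to 47 lower members in MI versus Sham and 26 to 47 in MI_ART versus Sham. Over the same fits, all tested genes called lower numbered 1952 to 3081 in MI versus Sham and 455 to 2896 in MI_ART versus Sham. The members' medians ranged from -1.17 to -0.99 and from -1.02 to -0.85, and in MI_ART versus MI from 0.03 to 0.20. Among uncalled genes, Ndufa4l2 ranged from -1.03 to 0.01 in MI_ART versus MI when 1 library was left out, above 0 without MI 4, and turned to -0.02 in MI_ART versus Sham without Sham 3. Dmac1 in MI versus Sham ranged from -0.06 to 0.16 with 1 library left out, and turned to -0.12 with the replicate block, to -0.06 without MI 4 and to -0.06 without both MI 4 and MI_ART 3. On the total-count scale it was at 0.93 and called higher, beside 9528 of all 19326 tested genes. Causes were not tested.

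Replicate numbers gave no pairing, since correlations of same-numbered libraries ranged from 0.00 to 0.19 and not all exceeded 0.1. A fit with the replicate number as a block called 46 members lower in MI versus Sham and 45 in MI_ART versus Sham, with medians of -1.24 and -0.95, and 0 in MI_ART versus MI, with a median of 0.24. Of all 19326 tested genes, that fit called 2868 lower in MI versus Sham, against 2768 without the block. In MI_ART versus Sham it called 2676 lower, against 1433 without the block. Of 796 values for 42 gene results over the alternatives, 740 kept direction and side of the threshold. With the direction kept, 27 lost their call (18 with total counts) and 17 gained one. The other 12 changed sign, some of them also losing their call. Depth was lowest for Ndufs6b, with 49 to 212 counts per library, while every other tested member had at least 328.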

Other observations

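A pair of rows with Nduf symbols ending in -ps stood outside the members. The row Ndufb1-ps, a symbol that RefSeq gives as an older name of the protein-coding subunit gene Ndufb1, had 18.7, 26.6 and 26.6 CPM in MI_ART, 15.5, 21.2 and 17.0 CPM in MI and 47.3, 43.5 and 74.6 CPM in Sham. Its log2 fold change was -1.20 (SE 0.25, adjusted p = 0.00818) in MI_ART versus Sham and -1.62 (SE 0.25, adjusted p = 0.00107) in MI versus Sham. In both comparisons its infarct libraries lay below every Sham library. The pseudogene Ndufab1-ps, a copy of the acyl carrier subunit gene Ndufab1, had 5.28, 5.63 and 7.63 CPM in MI_ART, 8.10, 5.46 and 5.26 CPM in MI and 14.6, 13.7 and 14.4 CPM in Sham, with log2 fold changes of -1.20 (adjusted p = 0.00597) in MI_ART versus Sham and -1.18 (adjusted p = 0.00369) in MI versus Sham.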
